A study of Sus scrofa with 12 samples.

Results

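The cells described here are primary granulosa cells of the pig (Sus scrofa) cultured in normoxia, read through the 3 normoxia input libraries among the 12 libraries of the study. These 3 libraries were chosen by their labels alone, and no measured value entered the choice. The study kept the cells for 12 h in hypoxia (1% O2, 5% CO2, 94% N2) or in normoxia (21% O2, 5% CO2, 74% N2), with 3 biological replicates per condition. Each replicate gave an immunoprecipitated library, enriched with an antibody against N6-methyladenosine, and a matched input library made from the same fragmented poly(A) RNA, which makes 4 groups of 3 libraries: hypoxia IP, hypoxia input, normoxia IP and normoxia input. The cells came from antral follicles of crossbred Duroc × Yorkshire × Landrace sows and grew in DMEM/F-12 medium with fetal bovine serum; the labels name no gonadotropin or other added hormone. The labels do not tell if each replicate stands for its own sow, so each SD is the spread between these libraries, which may be technical.

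Granulosa cells line the inside of the ovarian follicle and feed and signal to the oocyte through gap junctions. Follicle-stimulating hormone (FSH) from the pituitary acts on them through its receptor FSHR, and in the growing follicle they convert androgen from the neighbouring theca cells into estrogen with the aromatase CYP19A1. Cholesterol is brought into the mitochondrion by STAR, cut to pregnenolone by CYP11A1 and made into progesterone by HSD3B1, a route that dominates once the cells become luteal cells after the surge of luteinizing hormone (LH). Inhibins and activins, made from the subunits INHA, INHBA and INHBB, carry signals from these cells to the pituitary and to each other.

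Levels are given in FPKM, mapped fragments divided by transcript length and library size, a scale that allows genes to be set beside each other within a library. Errors are the SD over the 3 libraries (n = 3), and values of the libraries stand in the order 1, 2, 3, which has no meaning beyond their names. Only 1 condition is described, so no test between groups applies. A mean of 1 FPKM serves below as a round mark of level, not as a limit of detection. Of the 18060 genes in the table, 10025 (55.5%) had a mean of at least 1 FPKM, 3944 of at least 10, 463 of at least 100 and 41 of at least 1000. The median of the gene means was 1.64 FPKM. The share of 55.5% and this median are the setting beside which each list count and list median below is to be read. A further 1257 genes (6.96%) were listed at 0 in each of the 3 libraries. The libraries summed to 312374, 322277 and 317466 FPKM, and each listed between 9881 and 10108 genes at 1 FPKM or more. Pearson correlations over all genes on log2(FPKM + 1) were 0.995 for libraries 1 and 2, 0.990 for 1 and 3, and 0.994 for 2 and 3; genes are not independent replicates, and these values are descriptions. FPKM holds no read counts and no counts could be recovered, so the depth behind each value is unknown and no counting interval is given.

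**Figure D1:**
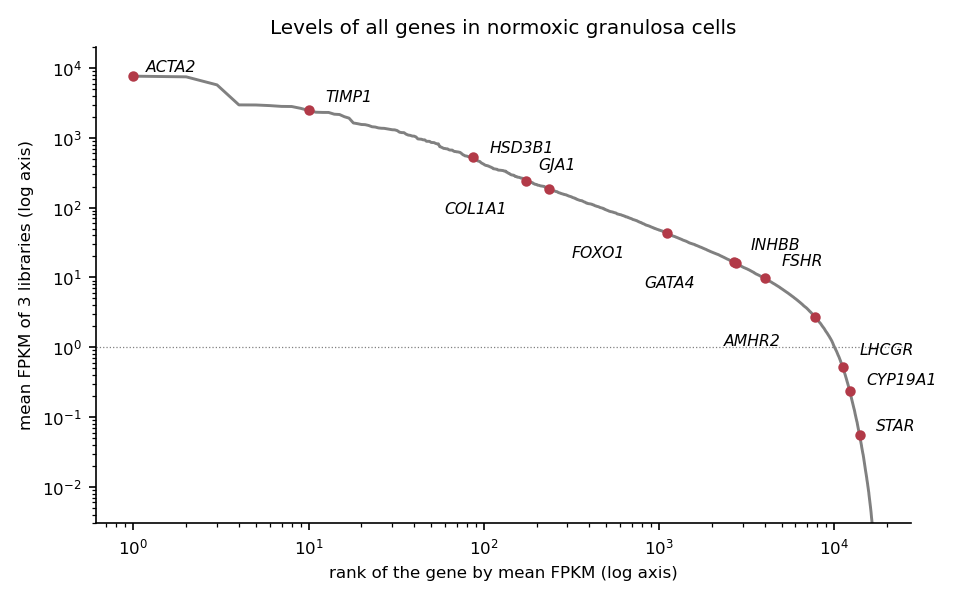
Mean FPKM of the 3 normoxia input libraries (vertical, log axis) against the rank of each gene by that mean (horizontal, log axis), with named genes as red points and the mark of 1 FPKM dotted. The alpha smooth muscle actin gene ACTA2 stands at rank 1, the steroid enzyme gene HSD3B1 among the 100 highest, FSHR near 10 FPKM, and LHCGR, CYP19A1 and STAR below 1 FPKM.

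Levels of 6 markers set for this part come first, with gene spans as in the deposited table on the build Sscrofa11.1. The markers were chosen with earlier results of these data known, so their levels are no test of the granulosa label. The receptor FSHR (chromosome 3, 91607305 to 91774683, plus strand), which defines the cell type among somatic cells of the ovary, stood at 9.89, 8.98 and 10.3 FPKM, a mean of 9.74 ± 0.692 FPKM. AMHR2 (chromosome 5, 18642823 to 18648848, plus strand), the type II receptor for anti-Müllerian hormone, stood at 1.93, 2.66 and 3.58 FPKM (2.72 ± 0.826 FPKM). The receptor of FSH was thus steady between libraries, while AMHR2 was lowest in library 1 and highest in library 3.

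Among the transcription factors of the 6, GATA4 (chromosome 14, 14884662 to 14939941, plus strand), a zinc finger activator of gonadal genes, had 14.6, 17.96 and 15.4 FPKM (15.99 ± 1.74 FPKM). FOXO1 (chromosome 11, 15317124 to 15410473, minus strand), a forkhead factor that FSH signalling holds in check in growing follicles, had 41.5, 49.2 and 38.6 FPKM (43.1 ± 5.501 FPKM). Both were above 10 FPKM in each library, and their ranges did not overlap, FOXO1 being the higher. The activin and inhibin beta B subunit gene INHBB (chromosome 15, 30999520 to 31004405, minus strand) had 14.9, 17.2 and 17.2 FPKM (16.4 ± 1.35 FPKM). ACTA2 (chromosome 14, 100867733 to 100886713, minus strand), a contractile actin known from smooth muscle and myofibroblasts, had 8600.1, 7718 and 6607 FPKM (7642 ± 998 FPKM), the highest mean of any gene in the table. FSHR, AMHR2, GATA4, FOXO1 and INHBB were thus above 1 FPKM in each library, beside a very high level of a gene known from another cell type.

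A wider list of 30 granulosa genes gave the same mixture of high and low. Of the 30, 22 had a mean of at least 1 FPKM, beside 55.5% of all genes, and the median of their means was 6.10 FPKM, beside 1.64 FPKM for all genes. The gap junction gene GJA1, whose connexin couples granulosa cells to one another, led with 281, 216 and 232 FPKM (243 ± 33.8 FPKM). SERPINE2, a protease inhibitor known from granulosa cells of cattle, followed with 78.8 ± 5.07 FPKM, apart from GJA1 and from FOXO1 below it. The N-cadherin gene CDH2 (31.7 ± 1.49 FPKM) and INHBA (28.9 ± 1.92 FPKM) came next and overlapped each other. In a large group from WT1 to RUNX2, with INHBB and GATA4 between them, neighbours overlapped, so their order is not settled by these libraries. FOXL2, the forkhead factor that maintains granulosa identity, had 6.01, 7.801 and 6.68 FPKM (6.83 ± 0.904 FPKM), above 1 FPKM in each library and below those of GATA4 and WT1.

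CYP19A1, HSD17B1 and AMH had means below 1 FPKM. The aromatase gene CYP19A1 (chromosome 1, 120600536 to 120627805, plus strand) had 0.214, 0.0832 and 0.402 FPKM (0.233 ± 0.1604 FPKM). HSD17B1, which reduces estrone to estradiol, had 0.126, 0.515 and 0.519 FPKM (0.386 ± 0.226 FPKM). AMH, the anti-Müllerian hormone of small growing follicles, was listed at 0 in libraries 1 and 2 and at 0.353 FPKM in library 3. All 3 genes stayed below 1 FPKM in every library. KITLG, the granulosa ligand for the oocyte receptor KIT, was somewhat higher at 1.72, 1.57 and 1.05 FPKM (1.45 ± 0.355 FPKM). In bulk RNA, fewer cells of a type and less RNA per cell cannot be told apart, and this holds for each level given here.

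**Figure D2:**
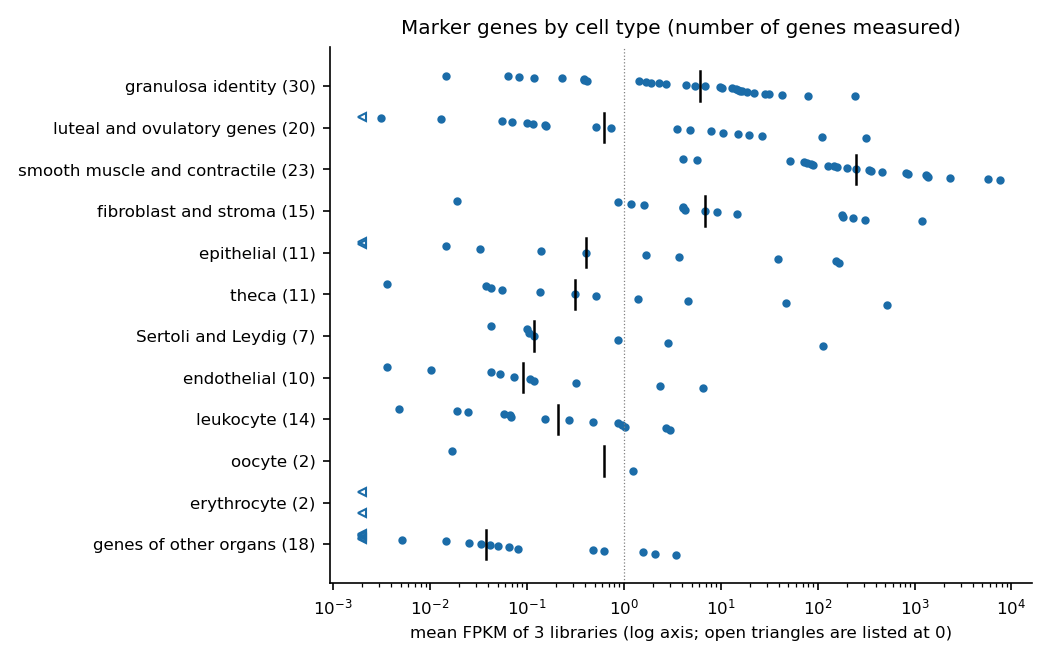
Mean FPKM over the 3 normoxia input libraries (horizontal, log axis) for each measured gene of 12 lists of cell type markers, 1 row per list with the number of genes measured; bars are list medians and open triangles are genes listed at 0. The contractile list lies farthest to the right with a median of 246 FPKM, the granulosa list has a median of 6.10 FPKM, and the endothelial, leukocyte and erythrocyte lists have medians below 1 FPKM.

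The 30 genes with the highest means were led by the cytoskeleton. The 10 highest held 12.7 ± 0.586% of the summed FPKM, the 50 highest 30.03% and the 100 highest 39.5%. By a grouping of the 30 made after their names were seen, 9 cytoskeletal genes held 9.88%, 8 translation genes 4.62%, 5 secreted products 3.72% and 2 ferritin genes 1.72%. TMSB10, a thymosin that binds actin monomers, had 8013, 7906 and 6502 FPKM (7473 ± 843 FPKM). ACTG1, the cytoplasmic gamma actin, had 5603, 5817 and 5775 FPKM (5732 ± 113 FPKM). Values of ACTA2 and TMSB10 overlapped, and both lay above ACTG1 in every library. The 5 actin genes measured summed to 5.06, 4.71 and 4.34% of the FPKM of libraries 1, 2 and 3; they are close copies of each other, so fragments can be shared between them and the split by gene is uncertain.

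Other cytoskeletal genes of the 30 were TMSB4X, TAGLN, MYL9, MYL6, TUBA1A and PFN1. TAGLN, the actin-binding transgelin of smooth muscle, had 2239, 2519 and 2176 FPKM (2311 ± 183 FPKM). MYL9, a regulatory light chain of myosin, had 1387 ± 127 FPKM, and its values overlapped those of the light chain gene MYL6 (1345 ± 69.3 FPKM). The tubulin gene TUBA1A had 1329.7 ± 99.2 FPKM and profilin, PFN1, 1305 ± 192 FPKM; alpha tubulin genes are also close copies of each other.

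The secreted products of the 30 were GPX3, THBS1, TIMP1, CLU and SPARC. GPX3, a secreted glutathione peroxidase that removes peroxides, had 2778, 3021 and 3088 FPKM (2962 ± 163 FPKM). THBS1, thrombospondin, an adhesive glycoprotein that activates TGF-beta and restrains vessel growth, had 2990.5, 3133 and 2740.3 FPKM (2955 ± 199 FPKM). These were level with each other and steady between libraries. TIMP1, an inhibitor of matrix metalloproteases, had 2159, 2091 and 3146 FPKM (2465 ± 591 FPKM). CLU, the secreted chaperone clusterin, had 1493, 1629.6 and 2623 FPKM (1915 ± 617 FPKM). For TIMP1 and CLU library 3 stood above the others, by more than the gap between libraries 1 and 2. SPARC, a collagen-binding matrix protein, had 1555, 1455 and 1498 FPKM (1503 ± 50.1 FPKM) with no library apart.

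Iron storage, translation and housekeeping genes filled most of the remaining places. The ferritin heavy chain FTH1 had 2819.6 ± 255 FPKM and the light chain FTL 2645 ± 263 FPKM, with overlapping values. EEF1A1, which delivers aminoacyl-tRNA to the ribosome, had 3420.0, 2566 and 2696 FPKM (2894 ± 459.9 FPKM), highest in library 1. Of the cytosolic ribosomal protein genes, 69 of 69 measured had a mean of at least 1 FPKM and 68 of at least 100, with a median of 383 FPKM; they took 12.9, 12.9 and 13.4% of the FPKM of libraries 1, 2 and 3. ENSSSCG00000033310, which has no symbol in the tables used here and carries ribosomal terms in the deposited annotation, had 2284, 2405 and 2239.8 FPKM (2309.7 ± 85.6 FPKM). AKR1C8, of the aldo-keto reductase family that includes steroid-reducing enzymes, had 1506, 1539.8 and 1235 FPKM (1427 ± 167 FPKM). Its row carries the description of another family member, AKR1C4, and members of this family share long stretches of sequence, so the gene behind these values is uncertain. The galectin gene LGALS1 (2328 ± 265 FPKM), the glycolytic enzyme gene GAPDH (2158 ± 182 FPKM), the calcium-binding S100A2 (1552 ± 81.4 FPKM) and the cyclophilin gene PPIA (1372 ± 113 FPKM) were the others.

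Receptors for pituitary hormones were few and low apart from FSHR. Of 7 measured, 2 had a mean of at least 1 FPKM, beside 55.5% of all genes, and the median was 0.519 FPKM. LHCGR (chromosome 3, 91964415 to 92021398, plus strand), the receptor for LH that appears as follicles approach ovulation, had 0.622, 0.514 and 0.421 FPKM (0.519 ± 0.101 FPKM). Within each library FSHR was 15.9, 17.5 and 24.6 times LHCGR in libraries 1, 2 and 3. OXTR, the oxytocin receptor, had 1.78, 1.17 and 0.507 FPKM (1.15 ± 0.635 FPKM), highest in library 1 and lowest in library 3. The growth hormone receptor GHR had 0.679 ± 0.274 FPKM and the prolactin receptor PRLR, a receptor of luteal cells, 0.157 ± 0.0579 FPKM. LHCGR and GHR overlapped and both lay above PRLR. The adrenocorticotropin receptor MC2R was listed at 0 in each library.

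Among steroid and nuclear hormone receptors, 25 of 36 measured had a mean of at least 1 FPKM, with a median of 3.25 FPKM. The receptors for estrogen and progesterone were low. ESR1 and ESR2 code for estrogen receptors alpha and beta, and ESR2 is the one known as the major form in granulosa cells of the follicle. ESR1 had 0.689, 0.448 and 0.431 FPKM (0.523 ± 0.145 FPKM). ESR2 had 0.231, 0.138 and 0.0658 FPKM (0.145 ± 0.08303 FPKM). ESR1 was above ESR2 in each library, 2.98, 3.24 and 6.54 times as high. PGR, the progesterone receptor that LH induces before ovulation, had 0.233, 0.121 and 0.111 FPKM (0.155 ± 0.0676 FPKM). All 3 of ESR1, ESR2 and PGR were below 1 FPKM in every library. Depth is unknown at such levels, so the order of ESR1 and ESR2 and their ratio have little support.

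Some other receptors of the list were higher. PGRMC1, a membrane-associated heme-binding protein linked to progesterone responses, had 92.4, 88.5 and 79.9 FPKM (86.9 ± 6.42 FPKM). Its relative PGRMC2 had 15.4 ± 3.45 FPKM. NR1H2, an oxysterol sensor, had 29.8 ± 3.81 FPKM and overlapped VDR, the vitamin D receptor, which had 19.4, 19.2 and 26.9 FPKM (21.8 ± 4.42 FPKM). VDR stood highest in library 3. From PGRMC2 down through NR1H3, PPARD, RXRB, RARA, ESRRA and RXRA each neighbour in the order overlapped the next. NR3C1, the glucocorticoid receptor, had 1.94, 1.46 and 1.17 FPKM (1.52 ± 0.3899 FPKM). The membrane estrogen receptor gene GPER1 had 0.717 ± 0.268 FPKM, and its values overlapped those of ESR1.

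**Figure D3:**
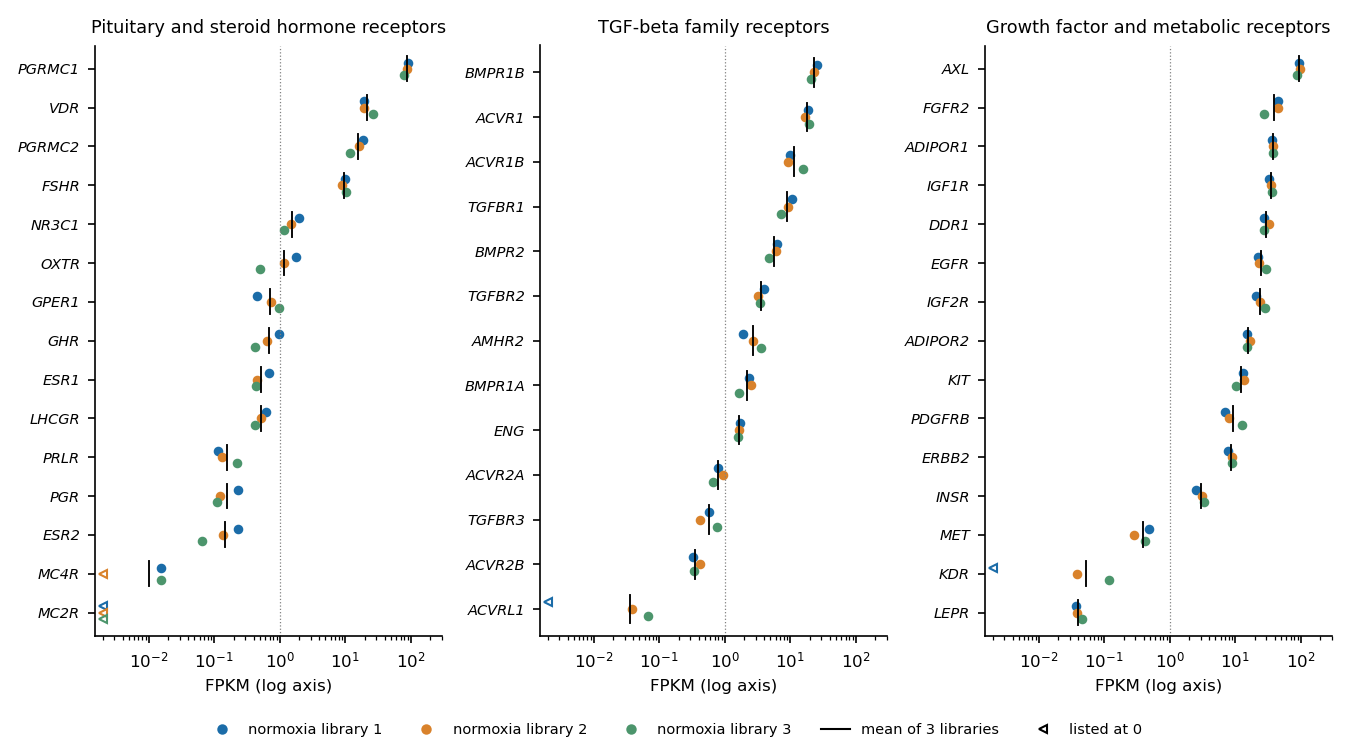
FPKM in each normoxia input library (horizontal, log axis; colours are libraries 1 to 3, bars are means, open triangles are values listed at 0) for pituitary and steroid hormone receptors, TGF-beta family receptors and growth factor and metabolic receptors. FSHR stands near 10 FPKM while LHCGR, PRLR, PGR and ESR2 lie left of the dotted mark of 1 FPKM; BMPR1B and AXL lead their panels.

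Receptor tyrosine kinases and metabolic hormone receptors made a list of 29 measured genes, 16 of them with a mean of at least 1 FPKM, a share near the 55.5% of all genes. AXL, the receptor for the secreted ligand GAS6, led with 93.2, 97.7 and 88.3 FPKM (93.1 ± 4.699 FPKM); GAS6 itself had 43.4, 56.3 and 63.1 FPKM (54.3 ± 9.98 FPKM). FGFR2, a fibroblast growth factor receptor, had 44.7, 44.3 and 27.9 FPKM (38.99 ± 9.58 FPKM) and was lowest in library 3. IGF1R, through which insulin-like growth factors raise the response to FSH, had 32.4, 35.7 and 36.03 FPKM (34.7 ± 2.03 FPKM). The insulin receptor INSR had 2.97 ± 0.381 FPKM, so that IGF1R was 12.7, 11.6 and 10.97 times INSR in libraries 1, 2 and 3. The values of these related receptors did not overlap.

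EGFR, which receives the ovulatory signals of the amphiregulin family, had 22.4, 22.9 and 29.6 FPKM (24.99 ± 3.99 FPKM). KIT, best known on oocytes and theca cells as the receptor for KITLG, had 13.2, 13.4 and 10.4 FPKM (12.3 ± 1.68 FPKM). KIT was 7.68, 8.53 and 9.95 times its ligand gene KITLG in libraries 1, 2 and 3, and the values of the pair did not overlap. The platelet-derived growth factor receptors PDGFRB (9.21 ± 2.897 FPKM) and PDGFRA (4.33 ± 0.651 FPKM) were both above 1 FPKM in each library, and PDGFRB stood highest in library 3 at 12.5 FPKM. The vascular receptors KDR, FLT1, FLT4 and TEK each had a mean below 0.1 FPKM, as did the leptin receptor LEPR (0.0406 ± 0.00504 FPKM).

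Receptors of the TGF-beta family pass signals of activins, bone morphogenetic proteins (BMPs) and growth and differentiation factors to SMAD proteins, type II receptors binding the ligand and type I receptors carrying the signal inward. Of 13 measured, 9 had a mean of at least 1 FPKM, beside 55.5% of all genes, and the median was 2.72 FPKM. The type I receptor BMPR1B (chromosome 8, 124536653 to 124759406, minus strand), which affects ovulation rate in sheep, led with 25.5, 22.9 and 21.02 FPKM (23.1 ± 2.25 FPKM). It was 10.7, 9.11 and 12.5 times its relative BMPR1A in libraries 1, 2 and 3. ACVR1, another type I receptor, had 18.3 ± 1.27 FPKM, apart from BMPR1B above and from ACVR1B below. ACVR1B, the type I receptor of activin, had 9.82, 9.34 and 15.5 FPKM (11.5 ± 3.399 FPKM) and was highest in library 3. Of the type II receptors, BMPR2 had 6.24, 5.97 and 4.83 FPKM (5.68 ± 0.751 FPKM) and TGFBR2 3.52 ± 0.3904 FPKM. The activin type II receptors were lower, ACVR2A at 0.795 ± 0.143 FPKM and ACVR2B at 0.358 ± 0.0513 FPKM.

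Of 35 measured G protein coupled receptors for prostaglandins, catecholamines and other ligands, 16 had a mean of at least 1 FPKM, beside 55.5% of all genes. Their median was 0.653 FPKM, beside 1.64 FPKM for all genes. The Wnt receptor FZD7 had 32.99, 38.3 and 27.4 FPKM (32.9 ± 5.45 FPKM) and the hedgehog transducer SMO 22.2 ± 2.93 FPKM. AGTR1, the type 1 angiotensin II receptor, had 18.96, 18.8 and 10.99 FPKM (16.2 ± 4.56 FPKM) and was lowest in library 3. PTGFR, the receptor through which prostaglandin F2 alpha acts on luteal cells, had 8.84, 8.03 and 6.86 FPKM (7.91 ± 0.9995 FPKM). The prostaglandin E receptors PTGER2, PTGER3 and PTGER4 all had means below 1 FPKM. ADRA1A and ADRB3, adrenergic receptors, were listed at 0 in each library. In the deposited annotation as a whole, 216 genes carry the term for G protein coupled receptor activity, and 50 of them (23.1%) had a mean of at least 1 FPKM, against 55.5% of all genes. The highest of these was the orphan receptor GPRC5B, with 167, 163 and 179.6 FPKM. Of 12 genes with the olfactory receptor term, 0 reached a mean of 1 FPKM and 5 were listed at 0 in each library.

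The secreted inhibin and activin system was present with more beta than alpha subunit RNA. INHBA (chromosome 18, 52889684 to 52900967, plus strand), the beta A subunit, had 31.03, 28.2 and 27.4 FPKM (28.9 ± 1.92 FPKM). INHA (chromosome 15, 121580803 to 121586006, plus strand), the alpha subunit that pairs with a beta subunit to form inhibin, had 8.202, 11.5 and 11.4 FPKM (10.4 ± 1.88 FPKM). Values of INHBA, INHBB and INHA did not overlap, and they stood in that order in each library. INHBA was 3.78, 2.45 and 2.41 times INHA and 2.09, 1.63 and 1.59 times INHBB in libraries 1, 2 and 3, with library 1 the highest for both. FST, follistatin, which binds and blocks activins, had 13.4, 13.7 and 15.7 FPKM (14.2 ± 1.26 FPKM), and INHBA was 2.32, 2.06 and 1.74 times FST.

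Of the 27 measured ligands and antagonists of the TGF-beta family, 18 had a mean of at least 1 FPKM, beside 55.5% of all genes. Their median was 8.85 FPKM. The BMP antagonist NBL1 led with 171, 196 and 224 FPKM (197 ± 26.9 FPKM). LTBP1, which holds latent TGF-beta in the matrix, had 104 ± 23.8 FPKM and overlapped the follistatin-like gene FSTL1 (96.2 ± 4.66 FPKM). FSTL3, another binder of activins, had 65.9, 77.04 and 83.4 FPKM (75.4 ± 8.87 FPKM). TGFB1 had 24.1, 29.1 and 38.2 FPKM (30.5 ± 7.14 FPKM), highest in library 3. BMP4, a ligand known from theca cells, had 16.5, 15.1 and 15.9 FPKM (15.9 ± 0.703 FPKM) and overlapped INHBB above it and FST below. GDF9, best known as an oocyte factor, had 1.38, 1.21 and 1.12 FPKM (1.24 ± 0.133 FPKM). GDF5 was listed at 0 in each library.

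**Figure D4:**
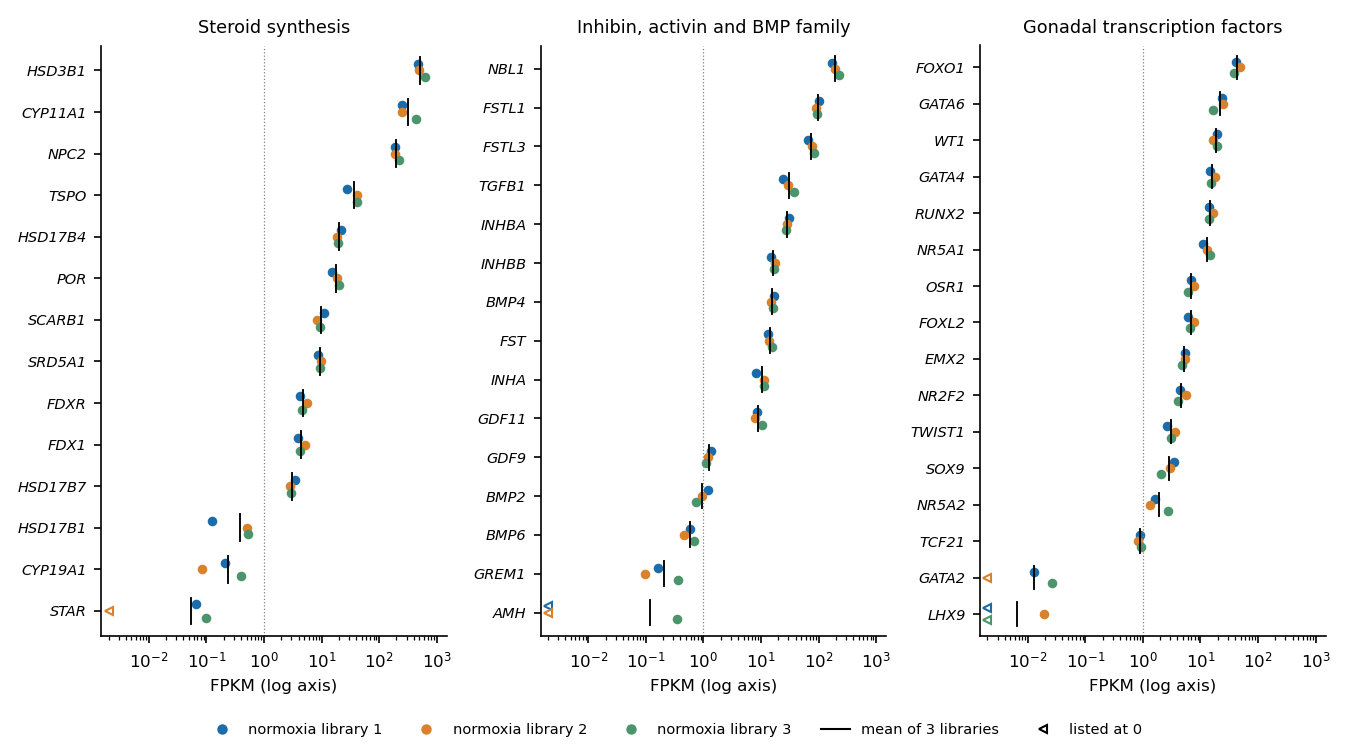
FPKM in each normoxia input library (horizontal, log axis; colours are libraries 1 to 3, bars are means, open triangles are values listed at 0) for genes of steroid synthesis, the inhibin, activin and BMP family, and gonadal transcription factors. HSD3B1 and CYP11A1 lie above 100 FPKM in each library while STAR, CYP19A1 and HSD17B1 lie below 1 FPKM, and FOXO1 stands above GATA4 and FOXL2.

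Steroid synthesis split sharply by step. HSD3B1 (chromosome 4, 101565230 to 101573844, minus strand), which makes progesterone from pregnenolone, had 466, 484 and 621 FPKM (524 ± 84.95 FPKM). CYP11A1 (chromosome 7, 59175758 to 59188478, plus strand), the side-chain cleavage enzyme that makes pregnenolone, had 254, 246 and 444 FPKM (315 ± 112 FPKM). Both were highest in library 3, by more than libraries 1 and 2 differed, and HSD3B1 was 1.83, 1.97 and 1.399 times CYP11A1 in libraries 1, 2 and 3. STAR (chromosome 15, 48377521 to 48385462, plus strand), which moves cholesterol into the mitochondrion for CYP11A1, was listed at 0 in library 2 and had 0.0669 FPKM in library 1 and 0.0973 in library 3. The enzyme genes of progesterone synthesis were thus above 200 FPKM in each library while the cholesterol carrier was below 0.1 FPKM in each. CYP17A1, the androgen-forming enzyme of theca cells, was not analysed here.

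Other parts of the pathway lay between. NPC2, which carries cholesterol out of lysosomes together with the membrane protein NPC1, had 187, 193 and 219.6 FPKM (199.9 ± 17.3 FPKM). TSPO, a protein of the outer mitochondrial membrane long linked to cholesterol handling, had 28.1, 40.6 and 41.1 FPKM (36.6 ± 7.37 FPKM) and was lowest in library 1. The electron donors of CYP11A1 were modest, FDXR, the reductase, at 4.84 ± 0.766 FPKM and FDX1, the ferredoxin, at 4.397 ± 0.6403 FPKM. For cholesterol uptake, SCARB1, the HDL receptor, had 9.66 ± 1.44 FPKM. STARD3, a relative of STAR on endosomes, had 4.704 ± 0.4500 FPKM. Of 25 measured genes of the list, 18 had a mean of at least 1 FPKM, with a median of 4.84 FPKM.

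Of 20 measured genes of ovulation and the corpus luteum, 9 had a mean of at least 1 FPKM, beside 55.5% of all genes, with a median of 0.625 FPKM. CYP11A1 led this list too. CEBPB, a transcription factor needed in mice for luteinization, had 81.5, 137 and 117 FPKM (112 ± 28.3 FPKM), lowest in library 1. VCAN, a proteoglycan of the expanding cumulus matrix, had 26.2, 24.8 and 28.2 FPKM (26.4 ± 1.71 FPKM). ADAMTS1, the protease that cleaves versican at ovulation, had 12.5, 12.2 and 34.2 FPKM (19.6 ± 12.6 FPKM), and library 3 stood far above the other libraries. PTGES, which makes prostaglandin E2, had 9.84, 11.3 and 10.5 FPKM (10.5 ± 0.715 FPKM). PTGS2, the inducible enzyme that feeds it, had 0.0161, 0.009200 and 0.278 FPKM (0.101 ± 0.153 FPKM). The epidermal growth factor-like ligands of ovulation, AREG, EREG and BTC, and the hyaluronan synthase HAS2 all had means below 1 FPKM.

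Growth factors, chemokines and cytokines made a list of 64 measured genes, with a median of 1.74 FPKM. Of them 39 had a mean of at least 1 FPKM, beside 55.5% of all genes. CCN2, connective tissue growth factor, a matricellular protein, led with 834, 906 and 938 FPKM (893 ± 53.1 FPKM). DKK3, of the dickkopf family of secreted glycoproteins, had 557, 473 and 546 FPKM (525 ± 45.4 FPKM). Both were close between libraries. CCL2 (chromosome 12, 40798109 to 40800026, minus strand), a chemokine that draws monocytes, had 280.2, 302 and 622 FPKM (401 ± 192 FPKM). SFRP4, a secreted binder of Wnt proteins, had 102, 120.1 and 214 FPKM (145 ± 60.3 FPKM). In library 3 both CCL2 and SFRP4 stood well above the other libraries, whose values were close.

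The vascular growth factor genes VEGFC (55.6 ± 7.87 FPKM) and VEGFB (49.1 ± 5.35 FPKM) were above VEGFA, which had 8.18, 8.36 and 13.2 FPKM (9.91 ± 2.85 FPKM). The cytokine genes LIF, IL6, CXCL2 and CXCL8 were each highest in library 3. LIF, of the interleukin 6 family, had 3.19, 2.88 and 12.7 FPKM (6.24 ± 5.55 FPKM). CXCL8, a chemokine for neutrophils, had 0, 0.108 and 3.36 FPKM (1.16 ± 1.91 FPKM). IL6 had 2.08, 2.14 and 4.24 FPKM (2.82 ± 1.23 FPKM). The means of LIF and CXCL8 rest on library 3, since libraries 1 and 2 had at most 3.19 FPKM of LIF and 0.108 FPKM of CXCL8. Markers of leukocytes, which also make these cytokines, summed to 0.00393, 0.00264 and 0.00265% of the FPKM of libraries 1, 2 and 3; their part in the levels of library 3 was not tested.

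Of 10 measured genes for binding proteins of insulin-like growth factors (IGF) and their proteases and partners, 7 had a mean of at least 1 FPKM, with a median of 14.8 FPKM. The ligand gene IGF1 had 1.37, 1.51 and 0.878 FPKM (1.254 ± 0.333 FPKM) and IGF2 0.0115 ± 0.01996 FPKM. IGFBP5, a binding protein known from granulosa cells of regressing follicles in rodents, had 225, 275 and 185 FPKM (228 ± 45.4 FPKM). IGFBP3 had 73.5, 59.1 and 88.95 FPKM (73.9 ± 14.9 FPKM), and IGFBP5 was 3.06, 4.65 and 2.08 times as high in libraries 1, 2 and 3. IGFBP4 had 54.7 ± 6.85 FPKM and IGFBP7 51.4 ± 2.57 FPKM, with overlapping values. IGFBP2 was lower with 21.1 ± 5.77 FPKM, as was IGFBP6 with 4.51 ± 1.39 FPKM. PAPPA, the protease that cleaves IGFBP4 in growing follicles, had 0.563, 0.653 and 0.544 FPKM (0.587 ± 0.0584 FPKM), and PAPPA2 was listed at 0 in each library.

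Proteases and their inhibitors were among the most abundant secreted products, with 23 of 29 measured at a mean of at least 1 FPKM and a median of 28.7 FPKM. TIMP1 was the highest of the list. PLAT, tissue plasminogen activator, had 173, 175 and 256 FPKM (201 ± 47.6 FPKM). MMP2, a gelatinase, had 196, 215 and 332 FPKM (248 ± 74.1 FPKM). MMP14, the membrane protease that activates it, had 64.9, 73.1 and 125 FPKM (87.7 ± 32.6 FPKM). Library 3 was highest for each of TIMP1, PLAT, MMP2 and MMP14, and the list took 1.65, 1.68 and 2.27% of the FPKM of libraries 1, 2 and 3. SERPINB2, an inhibitor of urokinase, had 1.96, 0.971 and 17.3 FPKM (6.73 ± 9.14 FPKM), so its mean rests on library 3.

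The extracellular matrix list had 40 of 44 measured genes at a mean of at least 1 FPKM and a median of 26.6 FPKM, and its share was 2.33, 2.34 and 2.43% of the FPKM of libraries 1, 2 and 3. FN1, fibronectin, had 377, 384 and 629.8 FPKM (464 ± 144 FPKM), highest in library 3. The fibrillar collagen gene COL3A1 had 272, 267 and 383 FPKM (308 ± 65.2 FPKM) and COL1A1 176, 189 and 185 FPKM (184 ± 6.99 FPKM). Basement membrane collagen COL4A1, a component of the follicular basal lamina, had 199.8, 269 and 195 FPKM (221 ± 41.4 FPKM). DCN, the proteoglycan decorin, had 193, 195 and 305 FPKM (231 ± 64.01 FPKM). FN1, COL3A1 and DCN shared the pattern of a high library 3, while COL1A1 was level. The elastin gene ELN was listed at 0 in each library.

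Of 95 measured transcription factors and regulators tied to the gonad, to signalling or to cell state, 81 had a mean of at least 1 FPKM, with a median of 6.19 FPKM. In the deposited annotation as a whole, 760 genes carry the term for DNA-binding transcription factor activity, and 387 of them (50.9%) had a mean of at least 1 FPKM, beside 55.5% of all genes. ID3, an inhibitor of basic helix-loop-helix factors and a target of BMP signals, led with 329, 431 and 244 FPKM (335 ± 93.6 FPKM). ID1, its relative, had 61.7, 88.4 and 30.2 FPKM (60.1 ± 29.1 FPKM). ID2 had 73.3, 78.4 and 45.3 FPKM (65.7 ± 17.8 FPKM). All 3 ID genes were lowest in library 3 and highest in library 2. ATF4, the activator of the integrated stress response, had 307, 302 and 299.9 FPKM (303 ± 3.48 FPKM), with a CV (the SD as a percent of the mean) of 1.15%.

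Factors that direct gonadal genes lay below these. NR5A1, steroidogenic factor 1, which activates steroid enzyme genes, had 11.2, 13.2 and 14.4 FPKM (12.9 ± 1.63 FPKM). Its relative NR5A2, needed in mouse granulosa cells for ovulation, had 1.66, 1.31 and 2.74 FPKM (1.902 ± 0.745 FPKM), and NR5A1 was 6.75, 10.05 and 5.28 times NR5A2 in libraries 1, 2 and 3. GATA6 had 24.1, 25.1 and 16.5 FPKM (21.9 ± 4.72 FPKM) and was 1.65, 1.398 and 1.07 times GATA4. WT1, the Wilms tumour factor of early follicles, had 19.8, 16.8 and 19.4 FPKM (18.7 ± 1.64 FPKM). SOX9, a factor of testis development that FOXL2 holds down in the adult mouse ovary, had 3.46, 2.98 and 2.09 FPKM (2.84 ± 0.696 FPKM), below FOXL2 in each library. GATA2 and LHX9 had means below 0.1 FPKM. HIF1A, the oxygen-regulated subunit of hypoxia-inducible factor, had 65.7, 58.97 and 54.9 FPKM (59.9 ± 5.41 FPKM) in these normoxic cells.

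Contractile genes formed the highest of the cell type lists. All 23 measured had a mean of at least 1 FPKM and 16 of at least 100, with a median of 246 FPKM; several, such as ACTB, ACTG1 and MYL6, serve every cell. The list took 7.85, 7.76 and 6.90% of the FPKM of libraries 1, 2 and 3. ACTA2 was 6.297, 5.55 and 5.78 times the cytoplasmic actin gene ACTB in libraries 1, 2 and 3. Actin genes are close copies of each other, so fragments can be shared between them and this ratio is uncertain. More restricted genes of smooth muscle were present at lower levels. CNN1, calponin, had 108, 95.4 and 67.3 FPKM (90.3 ± 20.9 FPKM). MYH11, the smooth muscle myosin heavy chain, had 79.5, 95.9 and 55.1 FPKM (76.8 ± 20.6 FPKM). MYLK, the kinase of the myosin light chain, had 105, 63.7 and 46.1 FPKM (71.7 ± 30.3 FPKM), highest in library 1. DES, desmin, was lowest of the list with 3.17, 4.61 and 4.43 FPKM (4.07 ± 0.784 FPKM). Smooth muscle, myofibroblasts and cultured granulosa cells cannot be separated by these bulk values, and the part of each in the ACTA2 level was not tested.

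Markers of fibroblasts and stroma were present as well, 13 of 15 with a mean of at least 1 FPKM and a summed share of 0.678, 0.634 and 0.707% of the FPKM of libraries 1, 2 and 3. VIM, the intermediate filament vimentin of mesenchymal and granulosa cells, had 1289, 1188 and 1086 FPKM (1188 ± 101 FPKM). COL3A1 (308 FPKM), DCN (231 FPKM), COL1A1 (184 FPKM) and S100A4 (178 FPKM) also had means above 100 FPKM. CD34 (14.9 FPKM) and PDGFRB (9.21 FPKM) followed in the order of the list. PDGFRA, a more restricted marker of fibroblasts, had 4.49, 3.61 and 4.88 FPKM (4.33 ± 0.651 FPKM). LUM, lumican, had 8.18, 6.53 and 6.19 FPKM (6.97 ± 1.07 FPKM), and DPT, dermatopontin, was near 0 with 0.0192 ± 0.0332 FPKM. No marker of this list was listed at 0 in each library.

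The theca list had 4 of 11 measured genes at a mean of at least 1 FPKM, and these were HSD3B1, ANPEP, NR2F2 and PTCH1. HSD3B1 makes up most of the list's share of 0.162, 0.164 and 0.220% and belongs to granulosa steroid synthesis too. INSL3, the peptide hormone of theca cells, was listed at 0 in libraries 1 and 2 and at 0.128 FPKM in library 3. Among 7 measured Sertoli and Leydig genes, CLDN11, a tight junction claudin, had 106, 118 and 116 FPKM (113 ± 6.54 FPKM) and SOX9 the value above; the other 5 had means below 1 FPKM.

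Epithelial markers ranged from over 100 FPKM to 0. KRT8, a keratin of simple epithelia, had 163, 232 and 103 FPKM (166 ± 64.1 FPKM). KRT19 had 142, 222 and 103 FPKM (156 ± 60.6 FPKM). KRT18, the usual filament partner of KRT8, had 1.996, 2.39 and 0.684 FPKM (1.69 ± 0.892 FPKM), and KRT8 was 81.5, 97.02 and 151 times KRT18 in libraries 1, 2 and 3. The keratins KRT8, KRT19 and KRT18 all stood highest in library 2 and lowest in library 3. TJP1, a scaffold of tight junctions, had 42.3, 39.6 and 35.4 FPKM (39.1 ± 3.49 FPKM), and the keratin KRT7 had 3.69 ± 0.655 FPKM. EPCAM and CLDN3 were listed at 0 in each library, and CDH1, the cadherin of epithelia, had 0.0331 ± 0.0293 FPKM. Of 11 measured, 5 had a mean of at least 1 FPKM, and the list took 0.114, 0.155 and 0.0774% of the FPKM of libraries 1, 2 and 3.

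Most measured markers of leukocytes and vessels had means below 1 FPKM, with 5 exceptions. Of 14 leukocyte genes 3 had a mean of at least 1 FPKM: CD14 (2.99 ± 0.5999 FPKM), CD74 (2.73 ± 0.8998 FPKM) and LAPTM5 (1.04 ± 0.388 FPKM). PTPRC, the common leukocyte antigen, had 0.04397, 0.0293 and 0 FPKM (0.0244 ± 0.0224 FPKM). Of 10 endothelial genes 2 had a mean of at least 1 FPKM: PECAM1 had 6.801, 6.19 and 6.699 FPKM (6.56 ± 0.327 FPKM) and the factor ERG 2.96, 1.95 and 2.202 FPKM (2.37 ± 0.526 FPKM). PECAM1 was above the granulosa marker AMHR2 in every library, and the values of CD14 and CD74 overlapped those of AMHR2. The part of endothelial or blood cells in these levels was not tested. VWF, CLDN5, KDR and TEK, of the same endothelial list as PECAM1 and ERG, each had a mean below 0.1 FPKM. The endothelial list took between 0.00281 and 0.00333% of the FPKM. Both measured globin genes, HBM and HBE1, were listed at 0 in each library. Of 13 oocyte genes 2 were measured and the others were not analysed here. GDF9, with the values above, was over 1 FPKM in each library, and DDX4, a helicase of germ cells, had 0.0343, 0.0162 and 0 FPKM (0.0168 ± 0.0172 FPKM).

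Among 18 genes of other organs 3 had a mean of at least 1 FPKM and 5 were listed at 0 in each library. The cardiac troponin gene TNNI3 had 2.81, 3.67 and 3.91 FPKM (3.46 ± 0.576 FPKM), the pancreatic protease gene CPA1 1.900, 2.19 and 2.26 FPKM (2.12 ± 0.1905 FPKM) and the pituitary hormone gene POMC 0.716, 1.78 and 2.197 FPKM (1.56 ± 0.764 FPKM). The thyroid gene TG, the liver gene CRP, the skeletal actin ACTA1 and the synaptic gene SNAP25 were among the 5 at 0. TNNI3, CPA1 and POMC were the highest of this list, whose median was 0.0376 FPKM, with 13 of 18 genes at a mean below 0.1 FPKM. In each library these 3 genes were above LHCGR, CYP19A1 and STAR. TNNI3 was also above the granulosa marker AMHR2 in each library, while CPA1 and POMC were below it.

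Cell cycle genes were present at moderate levels, 24 of 26 with a mean of at least 1 FPKM and a median of 11.6 FPKM. CDKN1A, the cell cycle inhibitor p21, led with 74.2, 97.4 and 101 FPKM (90.9 ± 14.6 FPKM). CCND1 had 11.9, 14.2 and 14.9 FPKM (13.7 ± 1.56 FPKM) and CCND2, the D cyclin that FSH raises in rodent granulosa cells, 12.6, 11.7 and 12.5 FPKM (12.3 ± 0.511 FPKM). CCND1 was 0.942, 1.21 and 1.19 times CCND2 in libraries 1, 2 and 3, so the order of the pair differed between libraries. UBE2C, a ubiquitin carrier of mitosis, had 72.02, 74.7 and 48.1 FPKM (64.9 ± 14.6 FPKM). CCNB1, a mitotic cyclin, had 28.1, 21.9 and 13.1 FPKM (21.04 ± 7.55 FPKM). TOP2A, a topoisomerase of dividing cells, had 10.98, 9.46 and 5.36 FPKM (8.598 ± 2.91 FPKM). The mitotic genes UBE2C, CCNB1 and TOP2A were lowest in library 3. CDKN1A was lowest in library 1 and close between libraries 2 and 3.

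Stress response genes were all present, 14 of 14 with a mean of at least 1 FPKM and a median of 41.1 FPKM. NUPR1, a stress-induced nuclear protein, had 483, 529.6 and 637 FPKM (549.9 ± 79.2 FPKM). HSPA5, the chaperone of the endoplasmic reticulum, had 268, 275 and 245 FPKM (263 ± 16.1 FPKM). ASNS, asparagine synthetase and a target of ATF4, had 133, 133 and 124 FPKM (130.2 ± 5.08 FPKM). DDIT3, the factor CHOP of prolonged stress, had 7.87, 8.28 and 6.95 FPKM (7.701 ± 0.677 FPKM). NUPR1 was highest in library 3, and the other genes named here were close between libraries.

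Of 33 measured genes of cell adhesion and gap junctions, 26 had a mean of at least 1 FPKM, with a median of 31.1 FPKM. The tetraspanin CD63 had 834, 916 and 1057 FPKM (936 ± 113 FPKM). ITGB1, the beta 1 integrin that binds matrix proteins, had 249, 228 and 209.6 FPKM (229 ± 19.8 FPKM). ITGB3, which pairs with ITGAV, had 121, 113 and 145 FPKM (127 ± 16.6 FPKM), and ITGAV had 62.4 ± 1.92 FPKM. The cadherin CDH2 stood at 31.7 FPKM against 0.0331 for CDH1.

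The spread between libraries differed between genes. Over the 953 genes with a mean of at least 50 FPKM, the median CV was 9.68%, and 103 of them had a CV of at least 20%. Of these 103, 48 were highest in library 3, 32 in library 2 and 23 in library 1. Over all 953 genes these counts were 356, 331 and 266. Of the 103, 48 were lowest in library 1, 43 in library 3 and 12 in library 2. Over all 953 genes these counts were 472, 312 and 169. GPNMB, a membrane glycoprotein of lysosomes, varied most with 85.9, 78.4 and 207 FPKM (CV 58.4%). ID1 followed with a CV of 48.5% and CCL2 with 47.7%. Of the 10 most variable genes, GPNMB, CCL2, SFRP4, HMGA1, COL15A1 and RND1 were highest in library 3, and ID1, MYLK, ENO3 and KRT19 were lowest there. HMGA1, a chromatin protein of growing cells, had 55.98, 88.4 and 132 FPKM (92.2 ± 38.2 FPKM). COL15A1, a basement membrane collagen, had 36.02, 41.3 and 73.4 FPKM (50.2 ± 20.2 FPKM).

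Among the 953 genes PALLD, the actin-bundling protein palladin, varied least with 361, 363 and 361 FPKM (CV 0.329%). TRPC4AP had 51.2, 50.9 and 50.7 FPKM and VPS25, a subunit of the endosomal sorting machinery, 72.7, 74.1 and 72.6 FPKM. The others of the 10 were ENSSSCG00000017913, which carries proteasome terms in the deposited annotation, ATF4, PLP2, RPS24, RPL27A, TUBB and EIF3I.

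**Figure D5:**
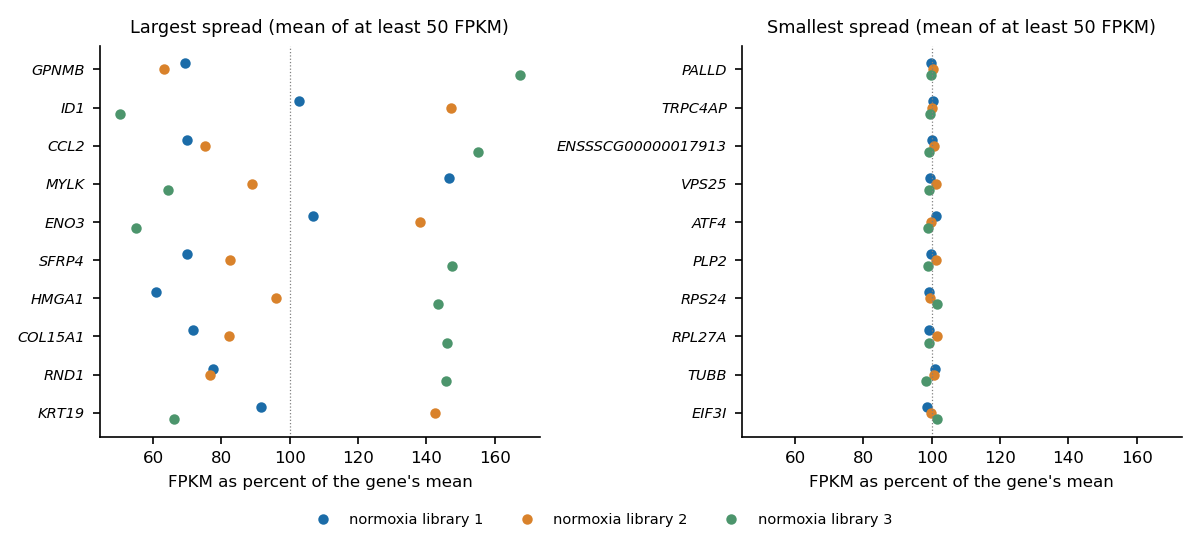
FPKM of each normoxia input library as a percent of the gene's mean over the 3 libraries (horizontal), for the 10 genes with the largest and the 10 with the smallest CV among the 953 genes with a mean of at least 50 FPKM; colours are libraries 1 to 3. GPNMB, CCL2 and SFRP4 lie far to the right in library 3, whose points for ID1, MYLK, ENO3 and KRT19 lie to the left, while the 10 steadiest genes stay close to 100%.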

How the data were processed

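Gene levels came from 1 deposited table that holds FPKM per gene and input library, as the authors made it; the unit is per the file headers. The submitters' processing notes name the build Sscrofa11.1 and list HISAT2 2.0.4 and StringTie 2.1.2 beside fastp 0.19.4, FastQC, HOMER 4.10 and edgeR 4.1, with no role for any tool. Coordinates are those of the deposited table. The labels describe a library preparation that marks strand, but not how strand was used in counting. Only the 3 columns of the normoxia input libraries were used; the other 3 value columns, the peak lists and the authors' comparison tables were not used here.

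FPKM were used as deposited, with Python 3.11.15, pandas 2.3.3 and numpy 2.4.6, and figures were drawn with matplotlib 3.10.9. For each gene the mean, SD, CV and rank were computed; a list's share is its summed FPKM over that of the library. Neighbours in an order were called apart only where the 3 values of 1 gene all lay above those of the other. No p-value was computed. Ratios of 24 gene pairs were formed within each library. The steps were checked on simulated data.

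To look for whole-read steps, low FPKM were compared between libraries: the most frequent ratio of library 1 to library 2 was shared by 2 of 476 low genes, so depth is unknown. Of 295 genes with symbols of families such as proteasome, respiratory chain and splicing subunits, 0 were listed at 0 in each library and 2, the restricted paralogs NDUFA4L2 and COX7B2, in at least 1. Since an exact 0 can be a failed estimate, it is given only as listed. Symbols were those of the table for 13660 genes, with 120 from a table of gene names and 105 from RefSeq; 4175 kept an identifier only.

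Names were drawn from the 30 highest genes, the 10 highest of each of 28 lists, the 6 markers, fixed sets of receptors, steroid enzymes and inhibin genes, and the 10 largest and 10 smallest CVs at a mean of at least 50 FPKM. Of 761 listed symbols 646 were in the table, and the others were not analysed here; some listed genes are not reported here. The members and lists were chosen with earlier results of these data known. Further list members named for their role, the annotation term classes, the grouping of the 30 highest genes and the gene pairs were chosen after values were seen. Alternatives were other scalings, thresholds and pseudocounts, the median or geometric mean, and leaving out each library.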

Additional observations from a re-analysis of the deposited data

How the results depend on the processing

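The number of genes with a mean of at least 1 FPKM, 10025, ranged from 9978 to 10103 with a library left out and was 10022 after median-ratio scaling, 11854 with each library scaled to a total of 1e+06, and 9624 where each library had to reach 1 FPKM. At other marks it was 13261 (0.1 FPKM), 11215 (0.5) and 8552 (2). The 10 highest genes held 12.7% of the summed FPKM, between 12.4 and 13.0% with a library left out, and 14.6% with ribosomal protein genes left out of the total. The lowest correlation between libraries, 0.990, was 0.987 on log2(FPKM + 0.1) and 0.981 over genes with a mean of at least 1 FPKM; the cause was not tested. Means of 647 genes moved by less than 1 SD after median-ratio scaling and under a geometric mean; scaling to a fixed total changes their unit. Leaving out 1 of 3 libraries cannot move a mean by 1 SD, and library scaling leaves the shares of 27 lists and the 24 ratios as they are, so those outcomes were fixed by construction and say nothing of stability; the means of CXCL8 and SERPINB2, among others, rest on library 3. No paired analysis was possible because only 1 condition is described. Depth is unknown, so levels below 1 FPKM carry no counting error here, and their order has little support.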

Other observations

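Further genes outside the lists stood high in the 3 normoxia libraries. In the deposited annotation 994 genes carry a term for the extracellular region or space, and they held 12.6 ± 0.925% of the summed FPKM. Of them 493 (49.6%) had a mean of at least 1 FPKM, beside 55.5% of all genes. VGF, a secreted neuroendocrine peptide precursor, had 58.4, 75.8 and 117 FPKM and led the 34 genes with the hormone term. Of these 34, 12 (35.3%) had a mean of at least 1 FPKM. MANF, a secreted protein of the endoplasmic reticulum stress response, had 105, 115 and 96.2 FPKM. P2RX4, a cation channel opened by ATP, had 71.9, 70.0 and 92.0 FPKM and led the 129 genes with the ion channel term. Of these 129, 23 (17.8%) had a mean of at least 1 FPKM. These genes were chosen after their values were seen.

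Of the 4175 genes with an identifier only, 856 (20.5%) had a mean of at least 1 FPKM and 31 of at least 100 FPKM. Genes whose products act together could differ widely in level: KRT18 had a mean of 1.69 FPKM beside 166 FPKM for its filament partner KRT8, and STAR 0.0547 FPKM beside 315 FPKM for CYP11A1. The cause was not tested.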
